A study of Mus musculus with 14 samples.

Results

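Transcripts of 42 mouse genes for heat shock proteins and co-chaperones were followed by gene name through the 12 RNA libraries of the series. The 42 were taken from 23591 symbols in one set of libraries and 54540 in the other, and all 42 are listed in both. They were chosen by name, with earlier results of these data known. The cells were BFU-E, burst-forming unit-erythroid cells, which are early progenitors of red blood cells, taken from C57BL/6 fetal liver and cultured in StemSpan SFEM II, a serum-free medium. There were 4 groups of 3 libraries. They were compound OB at 100 µM with its own DMSO controls (the OB set), and compound PD at 3 nM with its own DMSO controls (the PD set), where DMSO is the solvent. All groups share the strain, tissue and medium. The labels name no separate cultures or animals behind the replicates, so p-values measure only the spread between these libraries, which may be technical. The 2 chromatin samples of the series, a CREB immunoprecipitation and its input, are not analysed here.

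Molecular chaperones bind unfolded stretches of other proteins and let them go in cycles driven by ATP. In the HSP70 cycle, J proteins deliver the client and start ATP hydrolysis, and nucleotide exchange factors of the HSP110 and BAG families release ADP and the client. Clients can pass to HSP90 through adaptors, or to the ring-shaped chaperonins, TRiC in the cytosol and HSP60 with HSP10 in mitochondria. Heat shock factor 1 turns on many of these genes by binding heat shock elements, inverted repeats of a short unit in their promoters. In human erythroid cells, HSP70 is known to shield the transcription factor GATA1 from cleavage.

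The name "cytosolic" fits most of the 42 genes but not all. The products of Hspa9, Hspd1, Hspe1, Trap1 and Dnaja3 work in mitochondria, and that of Dnajc8 in the nucleus with splicing factors. Values are FPKM, in which fragments are scaled by transcript length and library size. A gene was tested where its mean over the libraries fitted was at least 1 FPKM, and 40 of the 42 were tested in each set. Hspa1a, one of the stress-inducible HSP70 genes, and Hspb1, a small heat shock protein, fell short. Changes are log2 differences of FPKM + 1, compound minus its own DMSO, and a gene is called where the adjusted p from limma is under 0.05. In bulk RNA, fewer cells of a type and less RNA per cell cannot be told apart.

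Erythroid markers were present in every library, with the 12 genes of the list summing to 1842 to 3541 FPKM. The sets differed in markers of other blood cells. Granulocyte markers summed to 145 to 582 FPKM in OB libraries and to 11687 to 37617 FPKM in PD libraries. Megakaryocyte markers summed to 484 to 1381 FPKM and 2332 to 7582 FPKM. Of 8 hepatocyte markers, 7 did not pass 1 FPKM in any OB library, the exception being Apoa2 at up to 1.90 FPKM. In PD libraries 6 did not, the exceptions being Apoa2 at up to 1.03 FPKM and Trf at up to 5.78 FPKM. In the PD set, 1 control library stood apart. In PD DMSO replicate 1 the 4 adult globin genes held 32.4% of the summed FPKM, against 12.8% to 19.9% in the other 5 libraries, and its median-ratio scaling factor was 0.836, against 1.00 to 1.06. The 42 chaperone genes together held 0.687% of the summed FPKM in that library, while compound PD libraries had 0.931% to 1.04% and the other 2 PD DMSO libraries 1.25% and 1.27%. The rule that defines this part asks for compound PD also without that library, so changes of named genes are given both ways. That library is low in these same genes. Calls made only without it therefore depend on a choice that is not independent of their values. In the OB set the globin genes were not usable, and the 42 genes held 1.60% to 1.83% of the summed FPKM.

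Promoters were searched for heat shock elements because they are the sites through which heat shock factor 1 acts on these genes. RefSeq (GRCm38.p6) gave windows of 250 bases before to 50 after the start for 34 of the 42 genes, 46 windows in all. Hsf1, Hspa8, Hspa9, Hsp90aa1, Hsp90ab1, St13, Dnajc2 and Cct4 had no window and were not searched. The letters searched were GAANNTTC and TTCNNGAA (a pair of units), and GAANNTTCNNGAA and TTCNNGAANNTTC (3 units). Both motifs of a pair read the same on the other strand, the longer motifs read as each other there, and each longer motif holds 2 overlapping matches of a pair. A pair stood in 17 of 46 windows (37.0%), against 15.1% of the 32851 windows of the whole table. The longer motif stood in 7 of 46 (15.2%), against 0.603% of all windows. Those 7 belong to Chordc1, Dnajb6, Hspd1, Hspe1 and Hsph1. The 2 windows of Dnajb6 overlap and hold the same matches, as do the 2 of Hsph1, so windows count some sites more than once. By gene symbol, 15 of 34 held a pair, against 4587 of 27025 in the whole table. The longer motif stood before 5 of 34, against 179 of 27025. Chordc1 had 5 matches of a pair, the most of the 46 windows, and of the 2 windows of Dnaja4 1 held 2 matches. A match is a description of letters and not a bound site. Hspd1 and Hspe1 lie head to head. Of the 2 windows of Hspd1, 1 overlaps the Hspe1 window by 285 bases and holds the same matches, and the other overlaps it by 4 bases and holds 0. Those of Hspa1a and Hspa1b are identical at 296 of 300 positions (98.7%). That identity is of promoter windows, and identity of the transcripts was not computed. The copies may share reads, so their levels are uncertain. The 250 bases before the start of 4 genes are shown 5′ to 3′ on the gene's strand, with matched letters in capitals. Hspe1 has a run of overlapping matches before its start, and Hspa1a and Hspa1b are the classic stress-inducible copies. Cct3 had no match. It had the largest change of a chaperone gene called after compound PD, where such calls came only without PD DMSO replicate 1. The windows are chr1:55087898-55088147 on the plus strand for Hspe1, chr17:34972157-34972406 on the minus strand for Hspa1a, chr17:34959239-34959488 on the minus strand for Hspa1b and chr3:88296885-88297134 on the plus strand for Cct3.
Hspe1: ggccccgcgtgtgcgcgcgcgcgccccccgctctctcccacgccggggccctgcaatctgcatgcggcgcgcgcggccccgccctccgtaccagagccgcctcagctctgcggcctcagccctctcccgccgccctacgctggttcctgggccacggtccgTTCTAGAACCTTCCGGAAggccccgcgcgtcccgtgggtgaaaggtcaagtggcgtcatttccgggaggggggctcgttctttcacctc
Hspa1a: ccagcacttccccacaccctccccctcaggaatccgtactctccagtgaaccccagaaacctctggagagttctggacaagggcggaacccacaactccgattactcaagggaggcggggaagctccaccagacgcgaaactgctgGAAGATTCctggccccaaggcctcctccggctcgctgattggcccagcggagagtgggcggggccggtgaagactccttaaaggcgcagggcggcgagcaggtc
Hspa1b: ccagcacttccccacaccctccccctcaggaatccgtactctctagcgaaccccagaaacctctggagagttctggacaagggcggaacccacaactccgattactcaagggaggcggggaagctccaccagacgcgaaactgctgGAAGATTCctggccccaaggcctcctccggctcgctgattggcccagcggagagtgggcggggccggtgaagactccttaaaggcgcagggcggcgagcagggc
Cct3: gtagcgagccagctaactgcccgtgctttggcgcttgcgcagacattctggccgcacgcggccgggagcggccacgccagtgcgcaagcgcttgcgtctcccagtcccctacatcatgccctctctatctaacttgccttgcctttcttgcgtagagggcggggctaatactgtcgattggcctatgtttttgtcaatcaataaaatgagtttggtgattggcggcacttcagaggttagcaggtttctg

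In every library of both sets Hspa8, the constitutive HSP70 of the cytosol, had the highest FPKM of the 42. Its level was 2337, 3045 and 3176 FPKM in compound OB libraries 1 to 3, against 2427, 2934 and 3266 FPKM in OB DMSO libraries 1 to 3. It was 2065, 2192 and 1879 FPKM in compound PD libraries, against 1353, 2513 and 2657 FPKM in PD DMSO libraries. By group mean, the cytosolic HSP90 genes Hsp90ab1 and Hsp90aa1 and the mitochondrial chaperonin genes Hspd1 (HSP60) and Hspe1 (HSP10) were the next highest, followed by TRiC subunits. The stress-inducible copies were at the other end. Hspa1b was at 1.52, 0.88 and 0.75 FPKM in compound OB libraries and at 1.51, 1.15 and 1.18 FPKM in OB DMSO libraries. These copies stayed near or under the filter. Hspa1a did not pass 0.35 FPKM in compound OB libraries or 0.37 FPKM in OB DMSO libraries. In the PD set, Hspa1b was at 0.99, 1.14 and 0.79 FPKM in compound PD libraries and at 0.59, 1.37 and 1.71 FPKM in PD DMSO libraries. Hspa1a was at 0.49, 0.57 and 0.68 FPKM in compound PD libraries, against 0.19, 0.61 and 0.84 FPKM in PD DMSO libraries. By these uncertain values, neither compound's libraries held a high level of these copies, and their groups overlapped in both sets with all controls. Without PD DMSO replicate 1 the compound PD values of Hspa1b lay below the remaining controls, and its change was −0.36 (−0.14 with that library), not called. Hspb1 was listed at 0.20, 0.11 and 0.38 FPKM in compound PD libraries and at 0 in the 3 PD DMSO libraries, and did not pass 0.18 FPKM in the OB set.

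**Figure D1:**
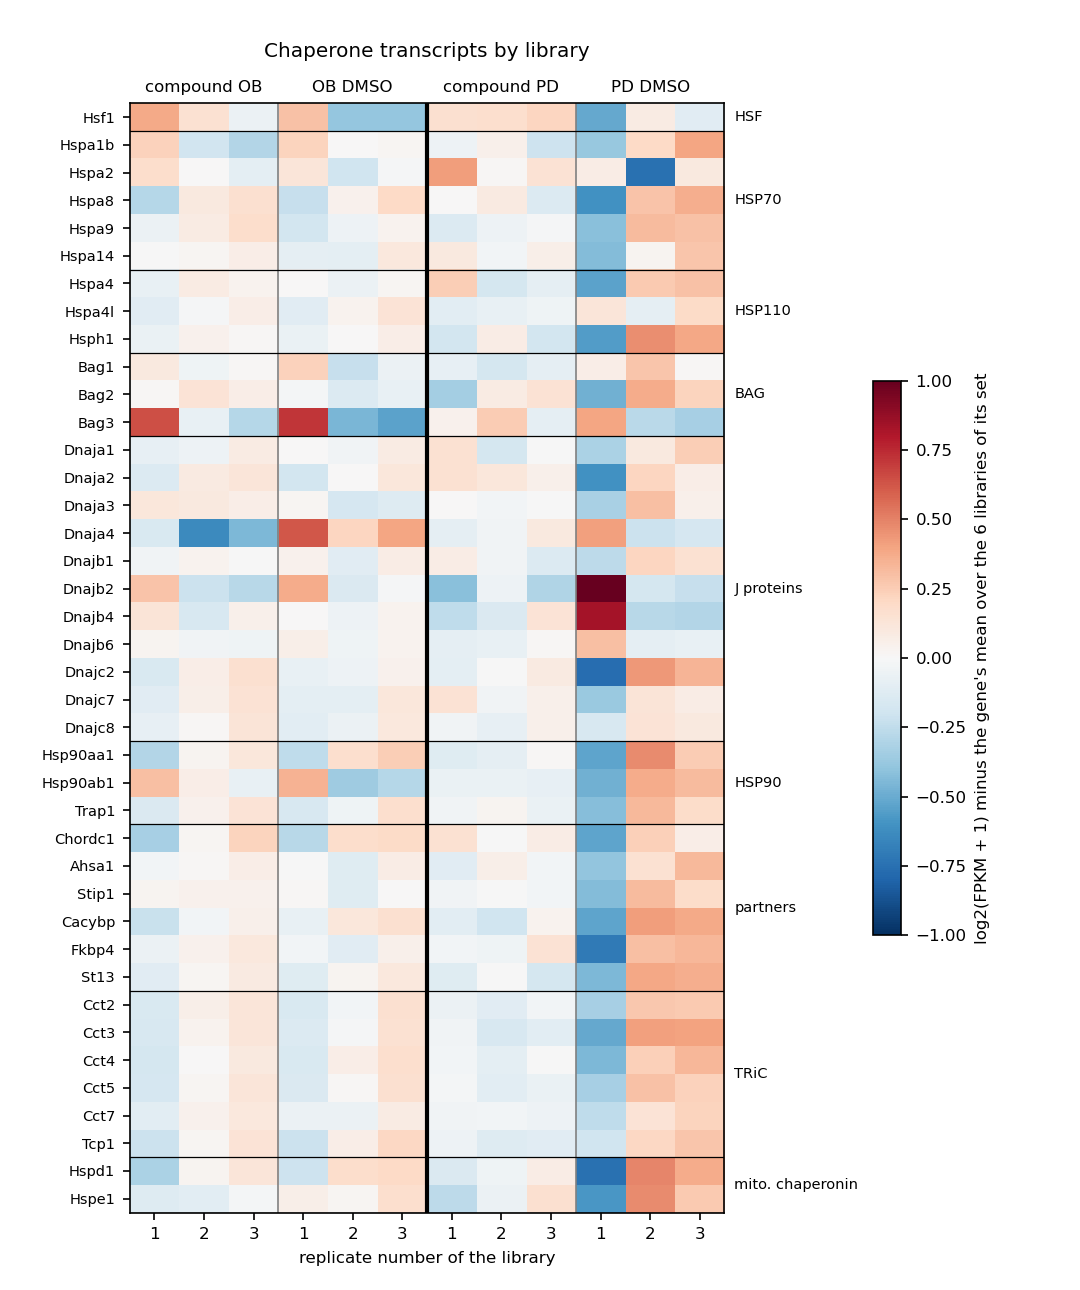
Rows are the 40 tested chaperone genes in order of role and columns the 12 libraries by group and replicate number; colour is log2(FPKM + 1) minus the gene's mean over the 6 libraries of its set, with the scale ending at −1 and 1. Most rows are low in PD DMSO replicate 1 and high in PD DMSO replicates 2 and 3, and Dnaja4 is low in all 3 compound OB libraries.

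After compound OB at 100 µM, 1 chaperone gene stood out. Dnaja4, a J protein of the DNAJA class that delivers clients to HSP70, was at 11.25, 7.74 and 8.94 FPKM in compound OB libraries, against 19.91, 14.8 and 16.82 FPKM in OB DMSO libraries. The groups did not overlap, and in each replicate pair the compound OB library was the lower, by −0.77, −0.85 and −0.84. With the 6 libraries taken as independent its change of −0.82 (SE 0.17) was not called (limma, adjusted p = 0.584). Pairing the OB libraries by replicate number is an assumption, because the labels give no more than the number. On that assumption Dnaja4 fell within pairs (limma, SE 0.07, 95% interval −0.996 to −0.65, adjusted p = 0.0434). That call was lost without pair 3 (−0.81, adjusted p = 0.448) and held without pair 1 or pair 2. Dnaja4 lies at chr9:54698848-54716317 in GRCm38.p6.

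No other chaperone gene was called after compound OB. Of the 40 tested, 0 passed with independent libraries, where 0 of 10069 genes (0.0%) passed at all and 372 (3.69%) had an unadjusted p under 0.05, 1 chaperone gene among them. Within pairs 1 of 40 was called, against 7 of 10069 genes (0.0695%), of which 3 (0.0298%) were lower, and 8 of 40 had an unadjusted p under 0.05, against 14.9% of all genes. The median change of the 40 was 0.01, against 0.03 for all genes, with 21 higher and 19 lower. Groups that did not overlap were found for Hspe1 and Dnaja4 among lower genes (3.43% of all genes) and for Dnaja3, Bag2 and Stip1 among higher genes (5.31% of all genes). In all 3 pairs 8 of 40 were lower, as were 16.7% of all genes, and 7 were higher, as were 23.1%.

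Hsf1, the transcription factor itself, was at 34.05, 29.04 and 24.96 FPKM in compound OB libraries, against 32.13, 19.59 and 19.64 FPKM in OB DMSO libraries. The groups overlapped through OB DMSO replicate 1, and the change of 0.32 (SE 0.22) was not called (limma, adjusted p = 1.00 with independent libraries, 0.295 within pairs). Hsp90ab1, the constitutive HSP90, had 1910, 1619.8 and 1466 FPKM in compound OB libraries, against 1974, 1208 and 1268 FPKM in OB DMSO libraries. Here too the high control was replicate 1, and the change of 0.19 was not called in either fit. Without pair 1, the paired limma fit called 961 of 9963 genes as higher, 2 of 39 tested chaperone genes among them. Among the paired fits run, those 2 rose only there, Hsf1 by 0.44 (adjusted p = 0.0178) and Hsp90ab1 by 0.32 (adjusted p = 0.00984). Hsp90aa1, its inducible counterpart, was at 907, 1134 and 1206 FPKM in compound OB libraries, against 930.45, 1249 and 1316 FPKM in OB DMSO libraries, lower in each pair by −0.04 to −0.14.

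The libraries numbered 1 of the OB set resembled each other for many of these genes. For 19 of 40 both were lower than the other 4 libraries, as for 29.0% of all genes, and these included 5 of the 6 TRiC subunits, 4 J proteins, Hspa8, Hsp90aa1 and Hspd1. For 7 of 40 both were higher, as for 30.1% of all genes, and these were Hsf1, Hspa1b, Hspa2, Hsp90ab1, Dnajb2, Bag1 and Bag3. Bag3, an HSP70 exchange factor that guides clients to autophagy, shows it: it was at 14.45, 8.37 and 7.09 FPKM in compound OB libraries, against 15.24, 6.18 and 5.80 FPKM in OB DMSO libraries. The granulocyte markers summed to 487 and 582 FPKM in these 2 libraries, against 145 to 181 FPKM in the other 4, and the megakaryocyte markers to 986 and 1381 FPKM, against 484 to 626 FPKM. Their part in the chaperone values was not tested.

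**Figure D2:**
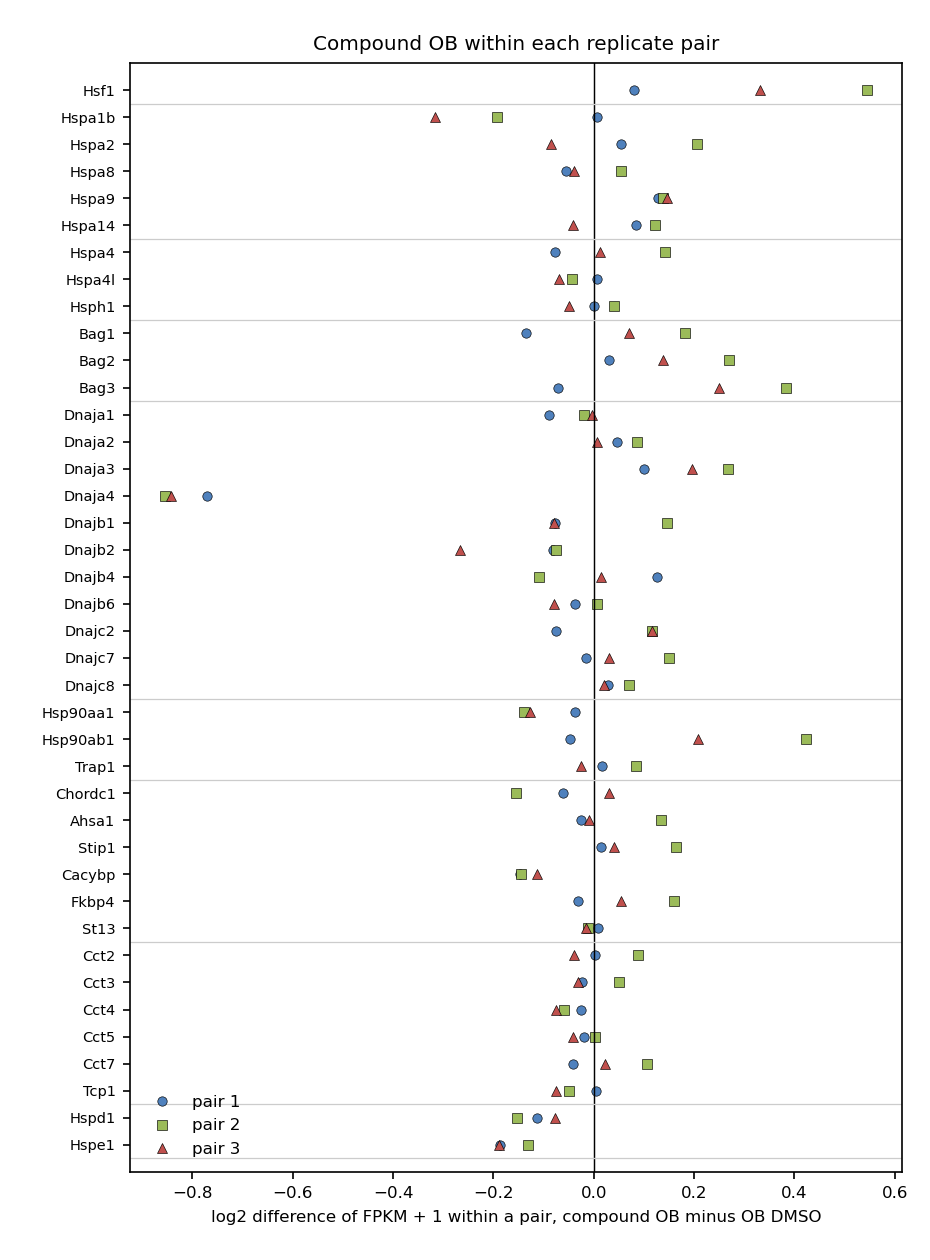
Each row is 1 of the 40 tested chaperone genes and each point the log2 difference of FPKM + 1, compound OB minus OB DMSO, within 1 of the 3 replicate pairs. Dnaja4 lies between −0.85 and −0.77 in all pairs, while Hsf1, Hsp90ab1 and Bag3 are spread from near 0 in pair 1 to 0.54, 0.42 and 0.38 in pair 2.

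The mitochondrial chaperonin genes were lower in every OB pair. Hspe1 was at 772, 781 and 832 FPKM in compound OB libraries, against 879, 856 and 948 FPKM in OB DMSO libraries, and its change of −0.17 (SE 0.07) was not called (limma, adjusted p = 1.00 with independent libraries, 0.219 within pairs). Hspd1 was at 627, 795 and 851 FPKM in compound OB libraries, against 678, 883 and 899 FPKM in OB DMSO libraries, a change of −0.11 that was not called. Their groups overlapped for Hspd1 but not for Hspe1. The mitochondrial genes Hspa9 and Dnaja3 went the other way within pairs. Hspa9, the mitochondrial HSP70, was at 281, 310.1 and 331 FPKM in compound OB libraries, against 257, 282 and 299 FPKM in OB DMSO libraries, higher in each pair by 0.13 to 0.15. Dnaja3, its J protein, was at 48.3, 47.65 and 46.8 FPKM in compound OB libraries, against 45.0, 39.4 and 40.7 FPKM in OB DMSO libraries, higher by 0.10 to 0.27. Neither was called. The 6 TRiC subunits stayed between −0.05 and 0.03, with Tcp1, the alpha subunit, at 316, 372 and 403 FPKM in compound OB libraries, against 315, 385 and 424 FPKM in OB DMSO libraries. Hspa1b and Bag3, with levels given above, had changes of −0.17 and 0.19 after compound OB. The genes with no OB levels given had differences of −0.14 (Dnajb2) to 0.15 (Bag2), and none of all these was called.

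After compound PD at 3 nM, the comparison with all 3 controls called no chaperone gene, while the comparison with PD DMSO replicates 2 and 3 called 2 that fell, Cct3 and Hsp90ab1. With all 3 controls, 0 of 40 were called, against 3 of 11887 genes (0.0252%), and 0 of 40 had an unadjusted p under 0.05, against 10.7% of all genes. The 40 genes were lower in 32 cases and higher in 8, with a median of −0.07, against 0.06 for all genes. The sign of that median rests on the controls: it was −0.28 without PD DMSO replicate 1, 0.02 without replicate 2 and 0.00 without replicate 3. Its size also moved with scaling. With all 3 controls it was −0.16 after median-ratio scaling, with 34 of 40 lower, and −0.09 after quantile scaling, with 32 lower. The all-gene median was −0.02 in both, and no chaperone gene was called. Without replicate 1, 2 of 40 were called, against 167 of 11941 genes (1.4%), of which 36 (0.301%) were lower. Then 34 of 40 were lower and 21 had an unadjusted p under 0.05, against 20.0% of all genes, and the all-gene median was −0.02.

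In the compound PD libraries the summed FPKM of the 42 genes lay between the controls. It was 7867, 8012 and 7898 in compound PD libraries, against 6059, 10125 and 9974 in PD DMSO libraries 1 to 3. For 26 of 40 genes all 3 compound PD values lay above PD DMSO replicate 1 and below replicates 2 and 3, as for 13.2% of all genes. PD DMSO replicate 1 was the lowest of the 6 libraries for 32 of 40, as for 49.6% of all genes, and the highest for 5 of 40, as for 11.4%. Those 5 were Dnaja4, Dnajb2, Dnajb4, Dnajb6 and Bag3. After median-ratio scaling it was the lowest for 19 of 40, as for 25.0% of all genes, and the highest for 8 of 40, as for 24.6%.

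**Figure D3:**
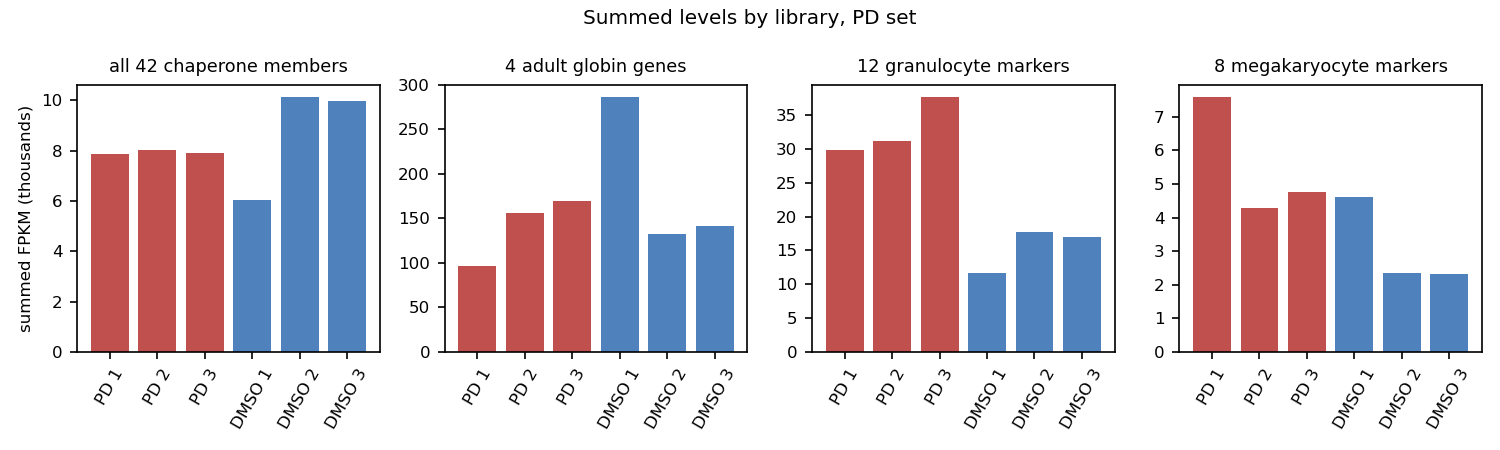
Bars give summed FPKM in each of the 6 PD-set libraries for the 42 chaperone genes, 4 adult globin genes, 12 granulocyte markers and 8 megakaryocyte markers. PD DMSO replicate 1 has the lowest chaperone sum (6059) and the highest globin share (32.4% of summed FPKM), and granulocyte sums are 29871 to 37617 in compound PD libraries against 11687 to 17681 in PD DMSO libraries.

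Marker sums of other blood cells differed between the PD groups. Granulocyte markers summed to 29871, 31183 and 37617 FPKM in compound PD libraries, against 11687, 17681 and 16904 FPKM in PD DMSO libraries. The groups did not overlap in this sum, most of which S100a8 and S100a9 carried. Mpo was at 933, 463 and 422 FPKM in compound PD libraries, against 428, 556 and 560 FPKM in PD DMSO libraries. Its groups overlapped, as did those of Ctsg, Ltf and Mmp8. Without PD DMSO replicate 1, 11 of the 12 were higher and 3 were called. Megakaryocyte markers summed to 7582, 4284 and 4748 FPKM in compound PD libraries, against 4604, 2356 and 2332 FPKM in PD DMSO libraries, with 8 of 8 higher and 5 called without replicate 1. Mast cell and basophil markers summed to 2832, 1379 and 1397 FPKM in compound PD libraries, against 1559, 816 and 872 FPKM in PD DMSO libraries, with 5 of 7 tested higher both with and without replicate 1. Cpa3, Cma1 and Tpsb2 carried most of that sum. The basophil markers Prss34 and Mcpt8 were at 2.37 to 2.96 and 5.42 to 17.7 FPKM in compound PD libraries, against 31.8 and 31.45 (Prss34) and 28.0 and 31.05 FPKM (Mcpt8) in PD DMSO replicates 2 and 3 and 1.30 and 2.63 FPKM in replicate 1. The mast cell and megakaryocyte sums overlapped between groups through PD DMSO replicate 1. Macrophage markers summed to 24.0 to 30.9 FPKM in compound PD libraries, against 12.5 to 23.7 FPKM in PD DMSO libraries, with C1qa at or near 0 in all. The erythroid list summed to 1842, 2212 and 2176 FPKM in compound PD libraries, against 3541, 2126 and 2115 FPKM in PD DMSO libraries. The part of these cells in the chaperone values was not tested.

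The chaperonin TRiC, which folds actin and tubulin, gave an even pattern across its subunits. All 6 subunits were lower than PD DMSO replicates 2 and 3 in every compound PD library, as were 20.8% of all genes. Their changes were −0.22 to −0.51, with a median of −0.33. All 6 had an unadjusted p under 0.05, against 20.0% of all genes. The subunits were measured in the same libraries, so they do not count as replicates. With replicate 1 the median was −0.13, all 6 were lower and 0 had an unadjusted p under 0.05, against 10.7% of all genes. Cct3, the gamma subunit whose promoter is printed above, was at 224, 205 and 213 FPKM in compound PD libraries, against 160.1, 306 and 303 FPKM in PD DMSO libraries 1 to 3. Compound PD lay below replicates 2 and 3 and above replicate 1. Cct3 fell by 0.51 on the log2 scale without replicate 1 (SE 0.08, 95% interval −0.70 to −0.31, limma, adjusted p = 0.0399), and its change was −0.20 with it. Cct3 was named after its values were seen. Tcp1 was at 315, 298 and 301 FPKM in compound PD libraries, against 283, 376 and 394 FPKM in PD DMSO libraries, a change of −0.34 without replicate 1 that was not called (limma, adjusted p = 0.0896) and −0.19 with it. The summed FPKM of the 6 subunits was 1453, 1388 and 1428 in compound PD libraries, against 1188, 1791 and 1821 in PD DMSO libraries. Cct3 lies at chr3:88297135-88321766 in GRCm38.p6.

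HSP90 genes followed the same order. Hsp90ab1 had 1099, 1099 and 1084 FPKM in compound PD libraries, against 822, 1487 and 1432 FPKM in PD DMSO libraries 1 to 3. The 3 compound PD values lay close together, while the controls lay on both sides of them. Without replicate 1 it fell by 0.42 on the log2 scale (SE 0.07, 95% interval −0.58 to −0.25, limma, adjusted p = 0.0428), and with it the change was −0.14. Hsp90aa1 was at 538, 548 and 588 FPKM in compound PD libraries, against 405, 812 and 696 FPKM in PD DMSO libraries, a change of −0.43 without replicate 1 that was not called (limma, adjusted p = 0.0795) and −0.13 with it. Trap1, the mitochondrial HSP90, was at 52.0, 54.3 and 50.8 FPKM in compound PD libraries, against 39.4, 67.0 and 60.8 FPKM in PD DMSO libraries, a change of −0.28 without replicate 1 and −0.05 with it. Hsp90ab1 lies at chr17:45567778-45573261 in GRCm38.p6. The calls of Cct3 and Hsp90ab1 held without compound PD replicate 1 and both were lost without any other single library, with adjusted p of 0.0660 to 0.236. They were also lost with no filter on low genes (adjusted p = 0.134 for Cct3 and 0.116 for Hsp90ab1) and with no variance trend (0.149 and 0.178).

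The partners of HSP70 and HSP90 were all lower than in PD DMSO replicates 2 and 3 on average, with a median of −0.28. With replicate 1, 4 of 6 were lower, with a median of −0.05. St13 (HIP), which steadies the ADP state of HSP70, was at 87.8, 95.6 and 84.6 FPKM in compound PD libraries, against 69.9, 125.8 and 123.5 FPKM in PD DMSO libraries, a change of −0.48 without replicate 1 (limma, adjusted p = 0.0678) and −0.20 with it. Stip1 (HOP), the adaptor that joins HSP70 to HSP90, was at 124.5, 127.5 and 125.1 FPKM in compound PD libraries, against 94.2, 159.1 and 144.9 FPKM in PD DMSO libraries, a change of −0.27 without replicate 1 and −0.04 with it. Cacybp, a binding partner of calcyclin, had a difference of −0.49, Fkbp4 (an immunophilin of steroid receptor complexes) of −0.29, Ahsa1 (an activator of HSP90 ATPase) of −0.27 and Chordc1, which binds HSP90, of −0.08, all without replicate 1. With it these were −0.18, 0.05, −0.06 and 0.15. None of the 6 was called, and 5 had an unadjusted p under 0.05 without replicate 1, against 20.0% of all genes.

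**Figure D4:**
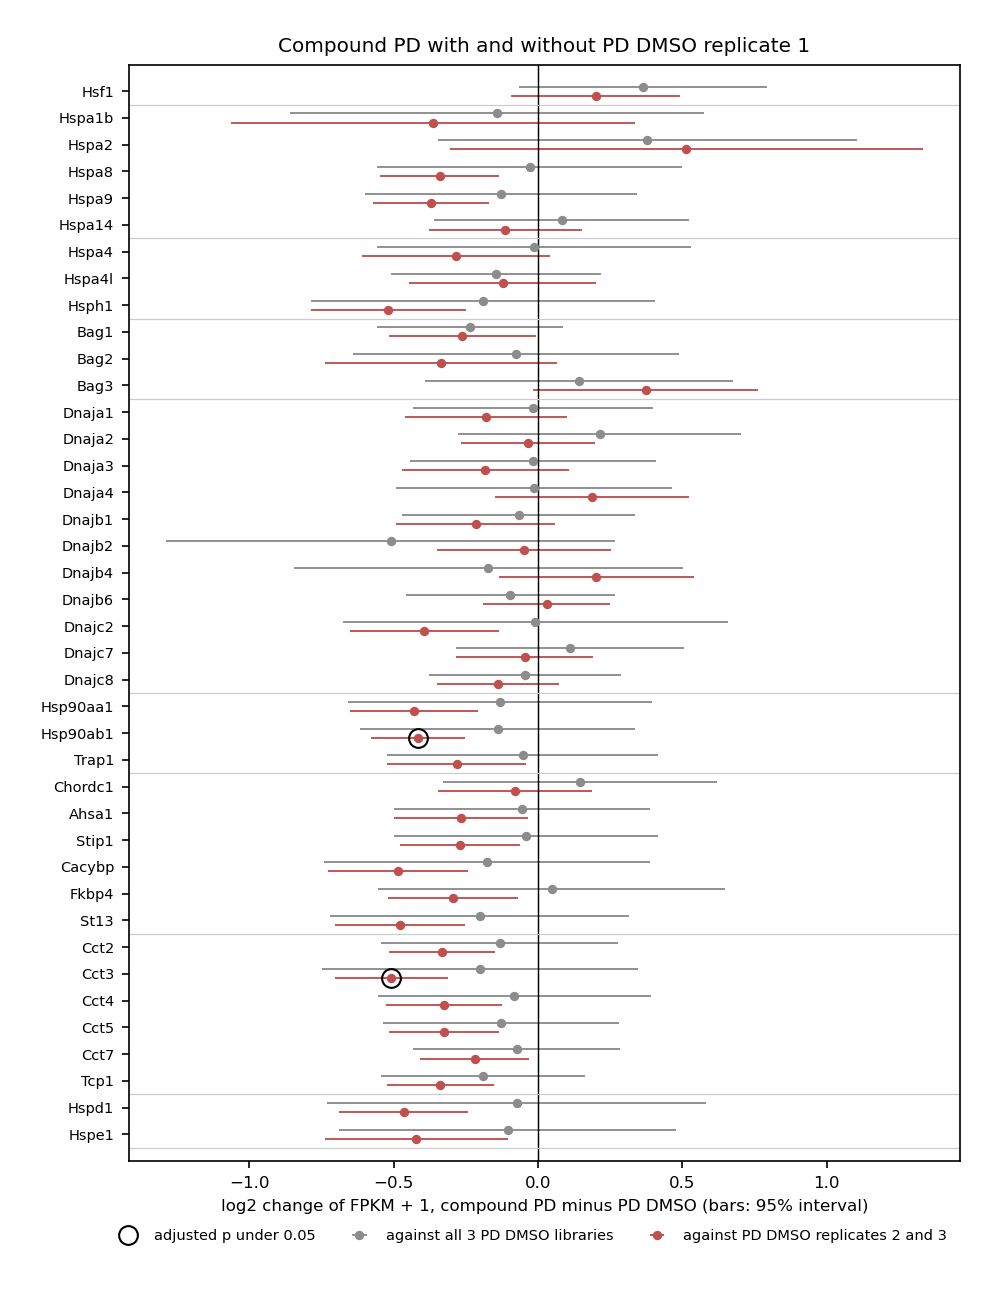
Points are log2 changes of FPKM + 1, compound PD minus PD DMSO, for the 40 tested chaperone genes, grey against all 3 controls and red against replicates 2 and 3, with bars for the 95% interval and a ring where the adjusted p was under 0.05. Without replicate 1 the red points are lower than 0 for 34 of 40 genes, and the 2 rings are Cct3 and Hsp90ab1.

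HSP70 and its exchange factors gave mixed values. Without replicate 1, Hspa8 had a difference of −0.34 (limma, adjusted p = 0.110) and Hspa9 of −0.37 (adjusted p = 0.0870), and with it of −0.03 and −0.13. Hspa2, an HSP70 best known from the testis, was low in all libraries, at 2.49, 1.63 and 1.89 FPKM in compound PD libraries, against 1.76, 0.56 and 1.80 FPKM in PD DMSO libraries, a change of 0.51 without replicate 1 and 0.38 with it. Hsph1 (HSP110), an exchange factor that helps to dissolve aggregates, was at 74.6, 89.4 and 74.7 FPKM in compound PD libraries, against 57.2, 117.1 and 110.9 FPKM in PD DMSO libraries. Its change without replicate 1, −0.52, was the lowest of the 40 but was not called (limma, adjusted p = 0.0794), and it was −0.19 with it. The other HSP110 genes, Hspa4 and Hspa4l, had differences of −0.28 and −0.12 without replicate 1, and Hspa14, a ribosome-associated HSP70, of −0.11. With it these were −0.01, −0.15 and 0.08. Bag1, an HSP70 exchange factor, was the 1 gene whose compound PD values, 118.3, 110.7 and 118.0 FPKM, all lay below the 3 PD DMSO values, 131.3, 152.4 and 126.5 FPKM, as for 3.72% of all genes. Its change was −0.24 with all controls (SE 0.14, limma, adjusted p = 0.658) and −0.26 without replicate 1 (adjusted p = 0.238). Bag2 had −0.34 without replicate 1 and −0.08 with it. Bag3 was at 12.3, 14.45 and 11.2 FPKM in compound PD libraries, against 16.0, 9.71 and 9.27 FPKM in PD DMSO libraries, above replicates 2 and 3 and below replicate 1. Its change was 0.37 without replicate 1 and 0.14 with it, not called.

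Hsf1 was the 1 gene of the 40 whose compound PD values lay above all 3 controls, as for 13.1% of all genes. It was at 24.8, 24.85 and 25.8 FPKM in compound PD libraries, against 15.2, 23.3 and 20.3 FPKM in PD DMSO libraries. Its change of 0.36 (SE 0.19) was not called (limma, adjusted p = 0.566), and it was 0.20 without replicate 1. The genes that hold the longer heat shock motif were mostly lower, and after compound PD so were those with no match. Without replicate 1, 4 of these 5 were lower, from −0.52 for Hsph1 to 0.03 for Dnajb6, with a median of −0.42, and 18 of 19 genes with no match in their windows were lower, with a median of −0.22, while 52.95% of all genes were lower. With all 3 controls, 4 of the 5 were lower, with a median of −0.10, and 15 of the 19, with a median of −0.06, while 40.9% of all genes were lower. After compound OB all 5 were lower, from −0.17 to 0.00, with a median of −0.06, as were 6 of the 19, with a median of 0.03, and 41.25% of all genes. Of these 5, Hspd1 and Hspe1 share their matches. A pair or more stood before 13 tested genes, the 5 among them. Without replicate 1, 9 of the 13 were lower, from −0.52 for Hsph1 to 0.37 for Bag3, with a median of −0.29. With all 3 controls 10 of the 13 were lower, with a median of −0.10. After compound OB 9 of the 13 were lower, with a median of −0.04. A link between motif and change was not tested.

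Among the J proteins, PD DMSO replicate 1 was set apart upwards for some genes. Dnajb2, a J protein that sorts clients to the proteasome, was at 63.9, 82.6 and 69.4 FPKM in compound PD libraries, against 194.7, 75.5 and 72.65 FPKM in PD DMSO libraries. Dnajb4 was at 31.45, 34.1 and 41.6 FPKM in compound PD libraries, against 68.0, 30.9 and 30.5 FPKM in PD DMSO libraries. In both, 1 control library was far above the other 5. The change of Dnajb4 was 0.20 without replicate 1 and −0.17 with it. Dnajb2 had the largest change of the 40 with all controls, −0.51 (SE 0.34, limma, adjusted p = 0.710), and −0.05 without replicate 1. Dnaja2, a main J protein of HSP70 in the cytosol, was at 86.1, 83.7 and 79.8 FPKM in compound PD libraries, against 50.4, 89.9 and 80.8 FPKM in PD DMSO libraries, a change of 0.21 that was −0.03 without replicate 1. Dnaja4 was at 13.1, 13.7 and 15.1 FPKM in compound PD libraries, against 18.9, 11.9 and 12.4 FPKM in PD DMSO libraries, a change of 0.19 without replicate 1 and −0.01 with it. The other J proteins, without replicate 1, had differences of −0.18 for Dnaja1, −0.18 for Dnaja3, −0.22 for Dnajb1, 0.03 for Dnajb6, −0.39 for Dnajc2, −0.05 for Dnajc7 and −0.14 for Dnajc8. With it, in the same order, these were −0.02, −0.02, −0.07, −0.10, −0.01, 0.11 and −0.05. None was called. Without replicate 1 the 11 J proteins had a median of −0.05, with 8 lower and 3 higher, and with it −0.02, with 9 lower and 2 higher.

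The mitochondrial chaperonin pair has overlapping promoter windows that hold the longest run of heat shock units shown. Both genes were lower than PD DMSO replicates 2 and 3 in every compound PD library, as were 20.8% of all genes. Hspd1 was at 354, 379.9 and 413 FPKM in compound PD libraries, against 233, 549 and 506 FPKM in PD DMSO libraries. Hspe1 was at 333, 384 and 446 FPKM in compound PD libraries, against 267, 555 and 479.6 FPKM in PD DMSO libraries. The changes were −0.46 and −0.42 without replicate 1 (limma, adjusted p = 0.0705 and 0.157) and −0.07 and −0.11 with it. Neither was called.

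**Figure D5:**
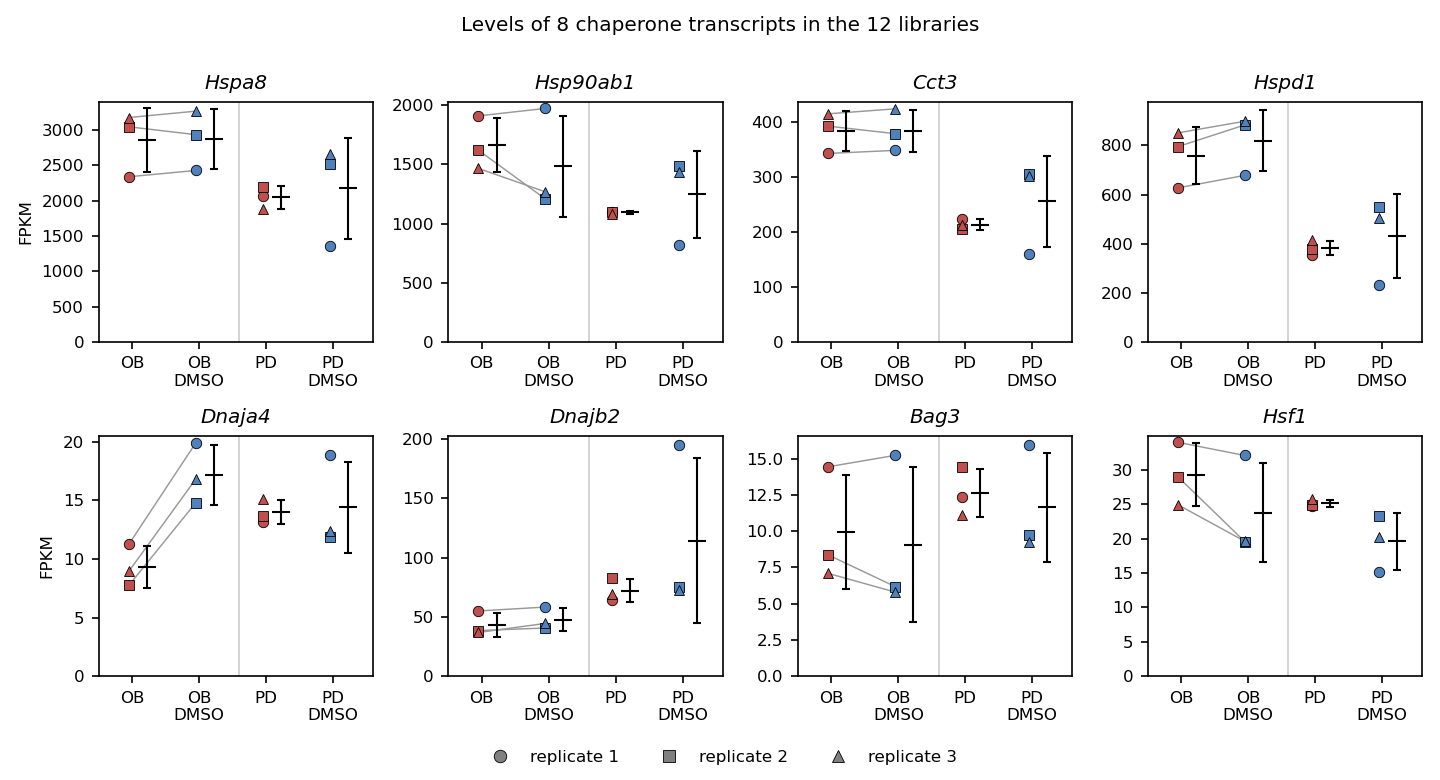
FPKM of 8 chaperone genes in the 12 libraries, with compound left of its DMSO in each set, symbols for replicate numbers, lines joining the pairs of the OB set, and bars for the mean ± SD of 3 libraries. Dnaja4 is lower in compound OB than in OB DMSO in each pair, and for Hspa8, Hsp90ab1, Cct3 and Hspd1 the compound PD libraries lie above PD DMSO replicate 1 and below replicates 2 and 3.

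Counted over groups that do not overlap, 27 of 40 genes were lower in compound PD than in PD DMSO replicates 2 and 3, as were 20.8% of all genes, and 4 were higher, as were 18.2%. The 4 higher genes were Hsf1, Dnaja4, Dnajb4 and Bag3. After median-ratio scaling, 26 of 40 were lower, as were 19.1% of all genes, and 3 were higher, as were 19.5%. With this scaling the median of the 40 without replicate 1 was −0.25.

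The compounds differ in dose and set, so the effects of compound, dose and set cannot be told apart in such a contrast. Dnaja4 had the largest difference, with a PD effect minus OB effect of 0.81 (SE 0.27, limma, adjusted p = 0.486), and 1.01 without PD DMSO replicate 1 (SE 0.23, adjusted p = 0.113). Neither passed the threshold. Over all 12 libraries 0 of 40 genes were called, where 0 of 10311 genes (0.0%) passed and 761 (7.38%) had an unadjusted p under 0.05, 1 of the 40 among them. Without PD DMSO replicate 1, 0 of 40 were called, against 15 of 10309 genes (0.146%), and 14 of 40 had an unadjusted p under 0.05, against 14.4% of all genes. The other genes with large differences, all uncalled, were Dnajb2 (−0.37), Hsp90ab1 (−0.33), Hspa2 (0.32), Bag1 (−0.27) and Hspa9 (−0.27).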

How the data were processed

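Libraries were made from column-extracted RNA with Illumina kits, per the labels' protocols, and the submitters' processing notes name STAR and the mm10 build. The authors deposited FPKM values per gene, with 2 decimals. The program behind them, the annotation and any use of strand were not stated in those sources, and overlapping, antisense and near-identical genes have uncertain values. The OB and PD sets list 24054 and 54752 entries, of which date-like names (27 in each) and split or repeated names (436 and 185) were left out. FPKM carries no counts, so the depth is unknown and the spread over 3 libraries stands for the precision.

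Groups and replicate numbers come from the sample titles. The compound and DMSO libraries of a set were compared on log2(FPKM + 1) in limma 3.58.1, run in R 4.3.3 beside statmod 1.5.0. The moderation was robust and followed the trend of variance with level. Genes entered a fit where they averaged 1 FPKM or more over its libraries. On this scale low genes change less than their ratio. Tests were two-sided, with Benjamini-Hochberg adjustment over all genes. The difference of effects was fitted over 12 libraries. Same-numbered OB libraries deviated together (correlations of 0.831, 0.434 and 0.652 over 10069 genes). Compound OB replicate 2 also did so with OB DMSO replicate 3 (0.326), and compound OB replicate 3 with OB DMSO replicate 2 (0.413). The libraries numbered 1 were thus set apart, while those numbered 2 and 3 were less clearly told apart. Blocked values are given where they change a call, with pairing by number assumed. Same-numbered PD libraries did not deviate together. Tables and figures used Python 3.11.15, pandas 2.3.3, numpy 2.4.6 and matplotlib 3.10.9. Promoter windows and coordinates come from RefSeq tables of GRCm38.p6.

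The genes and lists were chosen with earlier results of these data known. Named by rule were, for compound OB, compound PD with all controls and the difference of effects, the called genes and the 6 with the largest change, and in every comparison Hsf1, Hspa1a, Hspa1b, Hspa8, Hsp90aa1, Hsp90ab1, Hspd1 and Tcp1. The other genes are given because all 42 are accounted for. Alternatives were other pseudocounts, filters, scalings and moderation, the replicate block and leaving out each library, and those of the PD comparison without PD DMSO replicate 1, of the paired OB comparison and of the difference without that library were added after seeing the data.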

Additional observations from a re-analysis of the deposited data

How the results depend on the processing

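The replicate block gave 7 genes and 1 chaperone gene (Dnaja4) after compound OB. Within OB pairs the counts ran from 3 to 1123 genes and from 0 to 3 chaperone genes when 1 pair was left out (146 genes without pair 2), and median-ratio and quantile scaling gave 104 and 90 genes, with Dnaja4 called under both. In the PD set the replicate block gave 41 genes and no chaperone gene, and the numbers there pair nothing: correlations of same-numbered deviations were −0.00509, −0.0283 and −0.02. After compound PD, no filter and no trend each gave 0 genes, and leaving out 1 library gave 0 to 167 genes and 0 to 2 chaperone genes. Without PD DMSO replicate 1, no filter gave 3 genes and 0 chaperone genes, no trend 2 and 0, and median-ratio scaling 1 chaperone gene, Cct3, while leaving out a further library gave 0 to 252 genes and 0 to 2 chaperone genes. Hsp90ab1 was not called with median-ratio scaling (adjusted p = 0.0645, limma) or quantile scaling (0.0924), under which Hspd1 was (−0.47, adjusted p = 0.0489) and the median of the 40 was −0.241. For the difference of effects, pseudocount 0.1 gave 3 genes, no filter 3, no trend 6 and leaving out 1 library 0 to 15. Without PD DMSO replicate 1 it gave 30 with median-ratio and 36 with quantile scaling, none a chaperone gene. Leaving out OB libraries one at a time without the block gave 0 to 14 genes.

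Within a comparison, no gene was called with both signs. Some values changed sign when 1 library was left out, and of these Hsp90ab1 after compound PD was called at its low end, without PD DMSO replicate 1. After compound OB these ran from −0.088 to 0.593 for Bag3, −0.131 to 0.124 for Hspa8, −0.255 to 0.021 for Hsp90aa1, −0.245 to 0.016 for Hspd1 and −0.159 to 0.057 for Tcp1. After compound PD they ran from −0.035 to 0.376 for Dnaja2, −0.34 to 0.146 for Hspa8, −0.43 to 0.071 for Hsp90aa1, −0.416 to 0.012 for Hsp90ab1 and −0.465 to 0.151 for Hspd1. Without PD DMSO replicate 1 they ran from −0.151 to 0.032 for Dnajb2 and −0.111 to 0.042 for Dnaja2, which was 0.01 with quantile scaling. For the difference of effects they ran from −0.613 to 0.092 for Dnajb2, −0.197 to 0.188 for Hspa1b, −0.184 to 0.174 for Hsf1, −0.327 to 0.16 for Hspa8, −0.329 to 0.173 for Hsp90aa1 and −0.351 to 0.265 for Hspd1. Hsf1 had −0.004 and Hspd1 −0.011 there with median-ratio scaling, and Hspa1b −0.053 and Hspd1 −0.039 with quantile scaling. The cause was not tested. Libraries of unknown depth limit the low genes Hspa1a, Hspa1b, Hspa2 and Hspb1 most.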

Other observations

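A further 58 folding genes outside the 42 were looked at, among them the remaining TRiC subunits, prefoldins, HSP90 partners, endoplasmic reticulum J proteins and mitochondrial proteases. After compound OB 0 of 50 tested were called, with or without the replicate block, and their median change was 0.05. Fkbp5, a glucocorticoid-induced immunophilin that binds HSP90, was at 11.92, 10.61 and 10.08 FPKM in compound OB libraries, against 8.97, 6.49 and 6.57 FPKM in OB DMSO libraries. The groups did not overlap, and its change of 0.52 was not called (limma, adjusted p = 1.00 with independent libraries, 0.133 within pairs). Within pairs Fkbp5 rose without pair 1 (adjusted p = 0.00857) or pair 2 (0.0422), with median-ratio scaling (0.0352) and with quantile scaling (0.0445), and was not called without pair 3. Without pair 1, where 961 of 9963 genes rose, 7 of the 50 rose, Bag5, Bag6, Fkbp5, Lonp1, Ruvbl2, Sgta and Unc45a. Lonp1, the protease of the mitochondrial matrix, was at 110.8, 114.1 and 105.7 FPKM in compound OB libraries, against 98.5, 81.4 and 93.6 FPKM in OB DMSO libraries, and was not called with all pairs.

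After compound PD 0 of 52 were called with all controls, and 0 of 52 without PD DMSO replicate 1. In the comparison without that library 36 of 52 were lower, with a median of −0.14, against −0.02 for all genes. The remaining TRiC subunits followed the 6 described above. Cct8 was at 229, 229 and 214 FPKM in compound PD libraries, against 191, 297 and 307 FPKM in PD DMSO libraries, a change of −0.43 without replicate 1 (limma, adjusted p = 0.0605) and −0.21 with it. Without replicate 1 it was called with the filter at 5 FPKM (adjusted p = 0.0484) and without compound PD replicate 1 (0.0466), the only 1 of the 52 in the settings run. Cct6a was at 192, 199 and 185 FPKM in compound PD libraries, against 127, 249 and 243 FPKM in PD DMSO libraries, a change of −0.35 (adjusted p = 0.0888) and −0.04 with it. Hspa13, an HSP70 of the secretory pathway, was at 19.1, 16.6 and 15.7 FPKM in compound PD libraries, against 25.3, 11.45 and 12.5 FPKM in PD DMSO libraries. It lay above replicates 2 and 3 and below replicate 1, and its change of 0.48 without replicate 1 and 0.14 with it was not called. Genes named here beyond the rule were chosen after their values were seen.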
